A study of Homo sapiens with 15 samples.

Results

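The libraries compared were 6 of A375 cells that carried an empty vector and no transgene: 3 from a set of cultures given a vehicle, and 3 from a set given no treatment. They are 6 of the 15 libraries of a study of drug resistance in cutaneous melanoma. The other 9 came from cells made to overexpress VAV1 with vehicle, VAV1 with saracatinib, a SRC inhibitor, or RAC1P29S without treatment, and are used here only where named. The RAC1P29S libraries are named by their titles, while their genotype field gives an empty vector. A375 is an established human melanoma line with an activating BRAF mutation, and all 6 libraries share that line, the empty vector and the same medium with serum. The vector, its promoter, how many clones the transduced lines hold, and the agent, dose and duration of the vehicle are not given in the sources used here. The labels name biological triplicates but do not say how the cultures were kept apart, so p-values measure the spread between these libraries.

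Judged by their gene lists, every vehicle library belongs to one experiment and every untreated library to the other, which the labels do not state. Vehicle and experiment (culture, date, library preparation, processing) therefore cannot be told apart, and a difference below is a difference between those 2 sets of libraries. In bulk RNA, fewer cells of a type and less RNA per cell also cannot be told apart. With 3 libraries against 3, an exact permutation test of a single gene cannot give a two-sided p under 0.1, so genes were tested in 1 model across all genes.

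Melanoma cells are malignant relatives of the neural crest-derived melanocyte. In BRAF-mutant cells the MAPK cascade runs from RAF through MEK to ERK, and ERK output includes its own brakes, the DUSP phosphatases and the Sprouty proteins. Cultured lines differ in how much of the pigment programme set by MITF and SOX10 they keep, and in how far they show a dedifferentiated, mesenchymal state. An empty-vector line is the usual reference for a transgene, so its level of each gene sets what the transgene is measured against.

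The vehicle set lists 16768 gene symbols and the untreated set 16295, and 15703 symbols are in both. Total normalized counts, the deposited values turned back from the log2 scale, were 14443918 to 14600023 in the vehicle libraries and 15762216 to 16055376 in the untreated ones. Sequencing depth in reads is not given in the sources used here. All 6 libraries were rescaled to common median-of-ratios size factors, which lay between 0.976 and 0.978 with vehicle and at 1.03 untreated. Unless stated otherwise, values below are normalized counts on that common scale. Differences are vehicle minus untreated on the log2(normalized count + 1) scale with their standard error (SE, n = 3 and 3).

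The melanoma label was checked against lineage markers, of which several were abundant and the pigment genes were not. SOX10, the neural crest and melanocyte transcription factor, stood at 7905, 7565 and 7630.1 with vehicle and 9501, 9232 and 8605 untreated. CSPG4, a melanoma surface proteoglycan, stood at 12609, 11409 and 11752 with vehicle and 9458, 9793 and 9230.1 untreated. MITF, the master regulator of the pigment programme, was low by comparison at 444, 322 and 372 with vehicle and 303, 298 and 345 untreated, and its difference of 0.26 ± 0.13 did not pass the threshold (limma adjusted p = 0.124). PMEL, a melanosome matrix protein, was listed at 24.1, 20.8 and 10.8 with vehicle and 26.4, 41.4 and 42.5 untreated, and MLANA at 11.6, 4.0 and 3.5 with vehicle and 6.5, 10.7 and 20.2 untreated. TYR and DCT, both pigment enzymes, were not listed in both sets. These libraries thus held SOX10 and CSPG4 as abundant messages, with PMEL and MLANA below 50 normalized counts in every library.

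The most abundant messages per kilobase of exon were those of translation, glycolysis and the cytoskeleton. Averaged over the 6 libraries, RPL41 reached 31673 normalized counts per kilobase, GAPDH 31570.4, and EEF1A1, the elongation factor that brings aminoacyl-tRNA to the ribosome, 30063. RPL9P9, a near copy of the ribosomal gene RPL9 with which it can share reads, was listed at 29689.7 per kilobase. TMSB10, which binds actin monomers, had 22329 per kilobase, S100A6, a calcium-binding protein, 22139, TUBA1B, an alpha tubulin, 15418, and FTL, the ferritin light chain, 15150.4. The remaining 7 of the top 15 were ribosomal protein genes, from 19222 for RPS2 to 12782 for RPS6. Even among these abundant genes the sets differed in places: TUBA1B was at 45739, 45706 and 42763 with vehicle and 66526, 66822 and 63071 untreated, a difference of -0.55 ± 0.04 (limma adjusted p = 2.29e-06), and FTL at 18248, 16377 and 16831 with vehicle and 9515, 9924 and 8917 untreated, a difference of 0.86 ± 0.05 (limma adjusted p = 8.82e-07).

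Within a set the libraries lay close together, and the sets lay further apart. The median SD of a gene over 3 libraries was 0.116 log2 units with vehicle and 0.124 untreated, and the median absolute difference between the sets was 0.282. For genes with a mean of at least 1000 normalized counts the SDs were 0.0654 and 0.0708 and the difference 0.216. Below a mean of 100 the SDs rose to 0.309 and 0.319 and the difference to 0.495. Correlations across genes, which are not independent replicates, were 0.981 to 0.982 between libraries of one set and 0.963 to 0.966 between libraries of different sets.

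**Figure D1:**
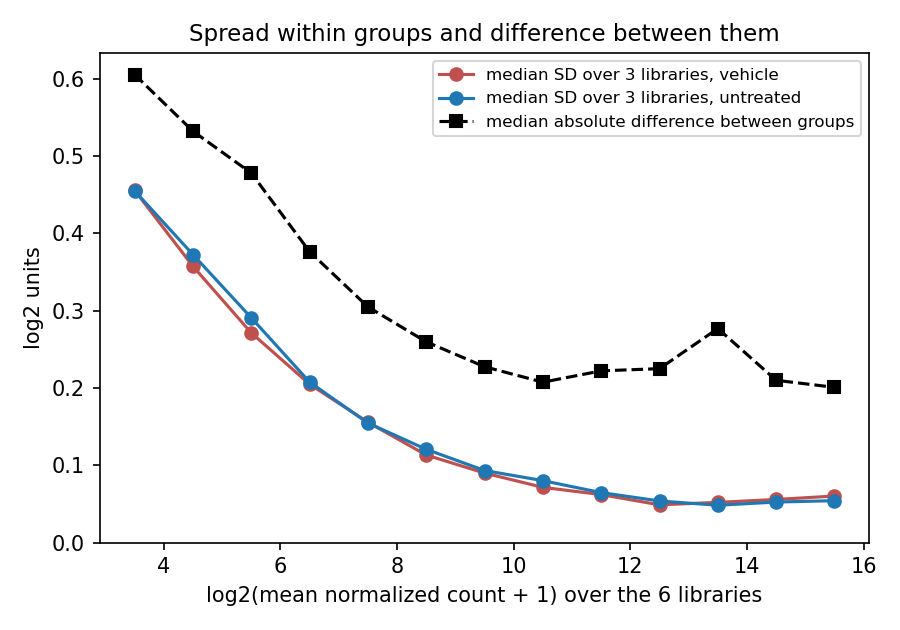
Median spread between the 3 libraries of each set, as an SD in log2 units, and the median absolute difference between the sets, against the mean level of the gene on a log2 axis; each point is a bin of at least 20 genes. Both SD curves fall with level and overlie each other, and the difference between sets lies above them in every bin.

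Of 13990 genes tested, 6113 (43.7%) passed an adjusted p of 0.05 in limma, 2961 (21.2%) higher with vehicle and 3152 (22.5%) lower. Most of these differences were small: 980 of the genes past the threshold differed by over 2-fold (669 higher, 311 lower) and 161 by over 4-fold. The groups' libraries did not overlap for 7506 genes (53.7%). For 7246 genes (51.8%) the 95% interval of the difference lay within 1.5-fold in either direction, and 2252 of these still passed the threshold. When the test asked for more than a 1.5-fold change, 496 genes passed (330 higher, 166 lower). The split depended on scaling: 48.4% of the genes past the threshold were higher with vehicle here, against 36.9% with the values as deposited and 57.3% with total-count scaling.

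**Figure D2:**
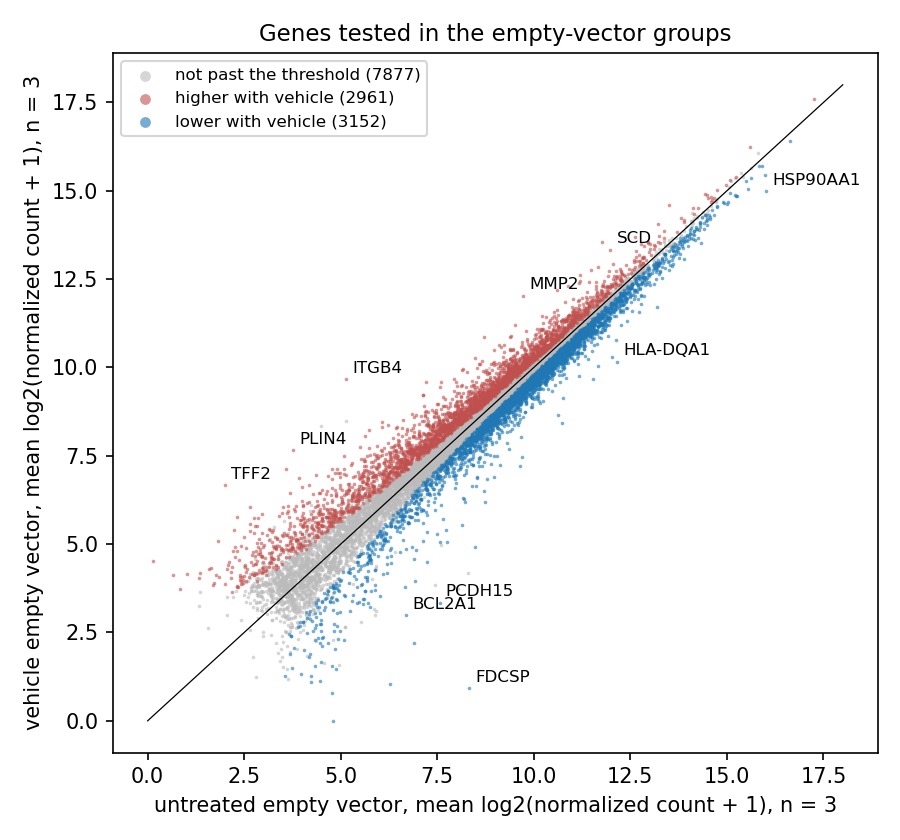
Mean log2(normalized count + 1) of each tested gene in the 3 vehicle libraries against that in the 3 untreated libraries, with the line of equality. Genes higher (2961) and lower (3152) with vehicle border a band of 7877 genes that did not pass the threshold, and FDCSP, PCDH15, ITGB4 and TFF2 stand far from the line.

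Differences also ran with transcript length. Across 13311 genes found once in the annotation, the difference had a Spearman correlation of 0.219 with exon length and -0.0574 with GC content, given as a description across genes. The median difference was -0.14 in the shortest 20% of genes and 0.15 in the longest 20%. The part of length in the results below was not tested, and values with a correction for GC and exon length, chosen after the data were seen, are given for some of the lists it moved.

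Among genes with at least 100 normalized counts in the higher set and no overlap, the highest difference was that of TFF2, a secreted trefoil peptide of mucous epithelia on chromosome 21 (chr21:42346357-42351128, GRCh38). TFF2 was listed at 115, 106 and 82.4 with vehicle and 2.3, 6.1 and 1.7 untreated, a difference of 4.65 ± 0.39, which was 2.59 with a pseudocount of 16. It met the filter of at least 10 normalized counts in at least 3 libraries through the vehicle set alone. ITGB4, the integrin subunit that anchors hemidesmosomes (chr17:75721328-75757818), stood at 879, 743 and 810.2 with vehicle and 45.7, 26.4 and 32.5 untreated, a difference of 4.53 ± 0.18 (limma adjusted p = 3.75e-08). PLIN4, a lipid droplet coat protein (chr19:4502180-4518465), stood at 206, 206 and 189 with vehicle and 15.4, 13.2 and 9.8 untreated, a difference of 3.89 ± 0.22. An adjusted p under 0.05 and absence of overlap were part of how these genes, and the lowest ones below, were chosen. Neither is further support for them.

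The other 9 genes of highest difference were PNMA2, PPP1R1B, PDE2A, BGN, QPRT, PALM, SULT1A4, ABCC3 and EEF1A2, between 2.37 and 3.54. BGN encodes biglycan, a small matrix proteoglycan, and stood at 320.5, 274 and 303 with vehicle and 45.3, 60.0 and 51.7 untreated. EEF1A2 is the tissue-restricted paralog of EEF1A1 and stood at 832, 696 and 774 with vehicle and 159, 148 and 134 untreated. ABCC3, an organic anion efflux pump, stood at 318, 333 and 411 with vehicle and 76.9, 53.1 and 70.0 untreated. SULT1A4 has a near-identical copy, so its 109, 197 and 269.9 with vehicle and 36.2, 27.3 and 35.8 untreated are uncertain.

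FDCSP, a small secreted peptide first described in follicular dendritic cells (chr4:70226071-70235252), had the lowest difference. FDCSP was listed at 1.1, 2.2 and 0 with vehicle and 302, 339 and 318 untreated. The fitted difference of -7.40 ± 0.40 depends on the pseudocount, since the vehicle values are near 0, and was -4.30 with a pseudocount of 16. BCL2A1, a survival member of the BCL2 family and a known MITF target (chr15:79960889-79971446), stood at 6.8, 10.9 and 4.5 with vehicle and 106, 89.5 and 112 untreated, a difference of -3.69 ± 0.32, or -2.35 with that pseudocount. Both FDCSP and BCL2A1 met the filter through the untreated libraries. FLT1, a VEGF receptor (chr13:28300344-28495145), stood at 161, 158 and 128 with vehicle and 815, 767 and 800.1 untreated, a difference of -2.41 ± 0.11 (limma adjusted p = 1.06e-07).

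The remaining 9 were PCDH15, ZACN, KRT6B, WNT9A, PLPP4, COL5A3, SPRR2D, PRRG3 and GRM8, between -4.22 and -2.32. PCDH15, a protocadherin of hair cells, varied within the vehicle set at 26.3, 7.6 and 3.4 with vehicle and 208, 185 and 172 untreated. ZACN, a zinc-activated ion channel, did too, at 70.2, 39.3 and 8.5 with vehicle and 408, 376 and 297 untreated, and lost the threshold without untreated replicate 1. COL5A3, a fibrillar collagen chain, stood at 97.1, 64.6 and 61.0 with vehicle and 431, 442 and 409 untreated, and WNT9A, a WNT ligand, at 26.1, 32.5 and 40.0 with vehicle and 234, 236 and 183 untreated.

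**Figure D3:**
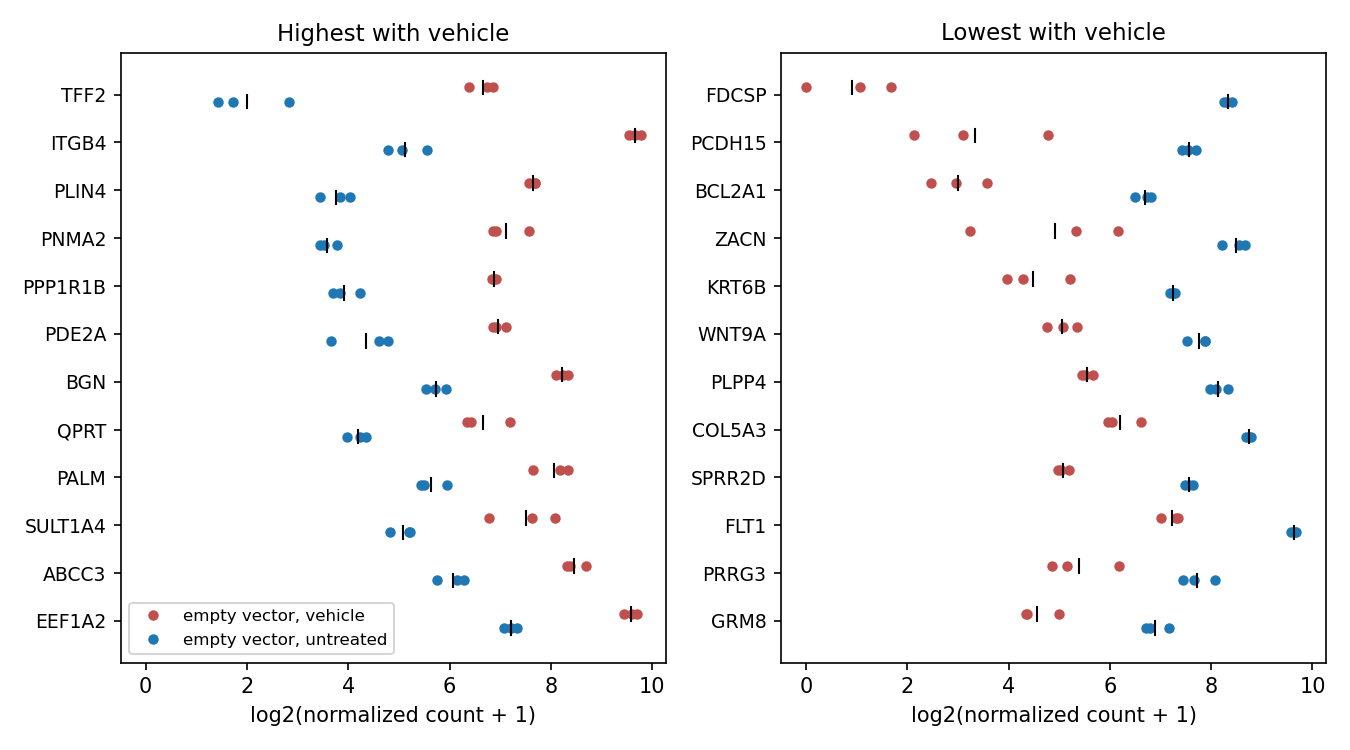
Normalized counts, on a log2(x + 1) axis, of the 12 genes of highest (left) and the 12 of lowest (right) difference, with 1 dot per library and a bar at the mean of 3. The genes were chosen for having no overlap between the sets; the vehicle dots of PCDH15 and ZACN are the most spread.

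Gene lists for 49 pathways and functions were then read against the shares over all genes, 21.2% higher and 22.5% lower, with a median difference of 0.01 over all genes. Members of MHC class II, DNA replication, mitosis and heat shock lists were mostly lower with vehicle, and members of the integrin, fatty acid and MAPK output lists mostly higher. These are counts from the fit over all genes, and no list as such was tested. The p53, lysosome, FOXO and histone lists lay near the shares over all genes in both directions. The hypoxia, clock, cancer-testis and nuclear oxidative phosphorylation lists lay near the total share over all genes, 43.7%.

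**Figure D4:**
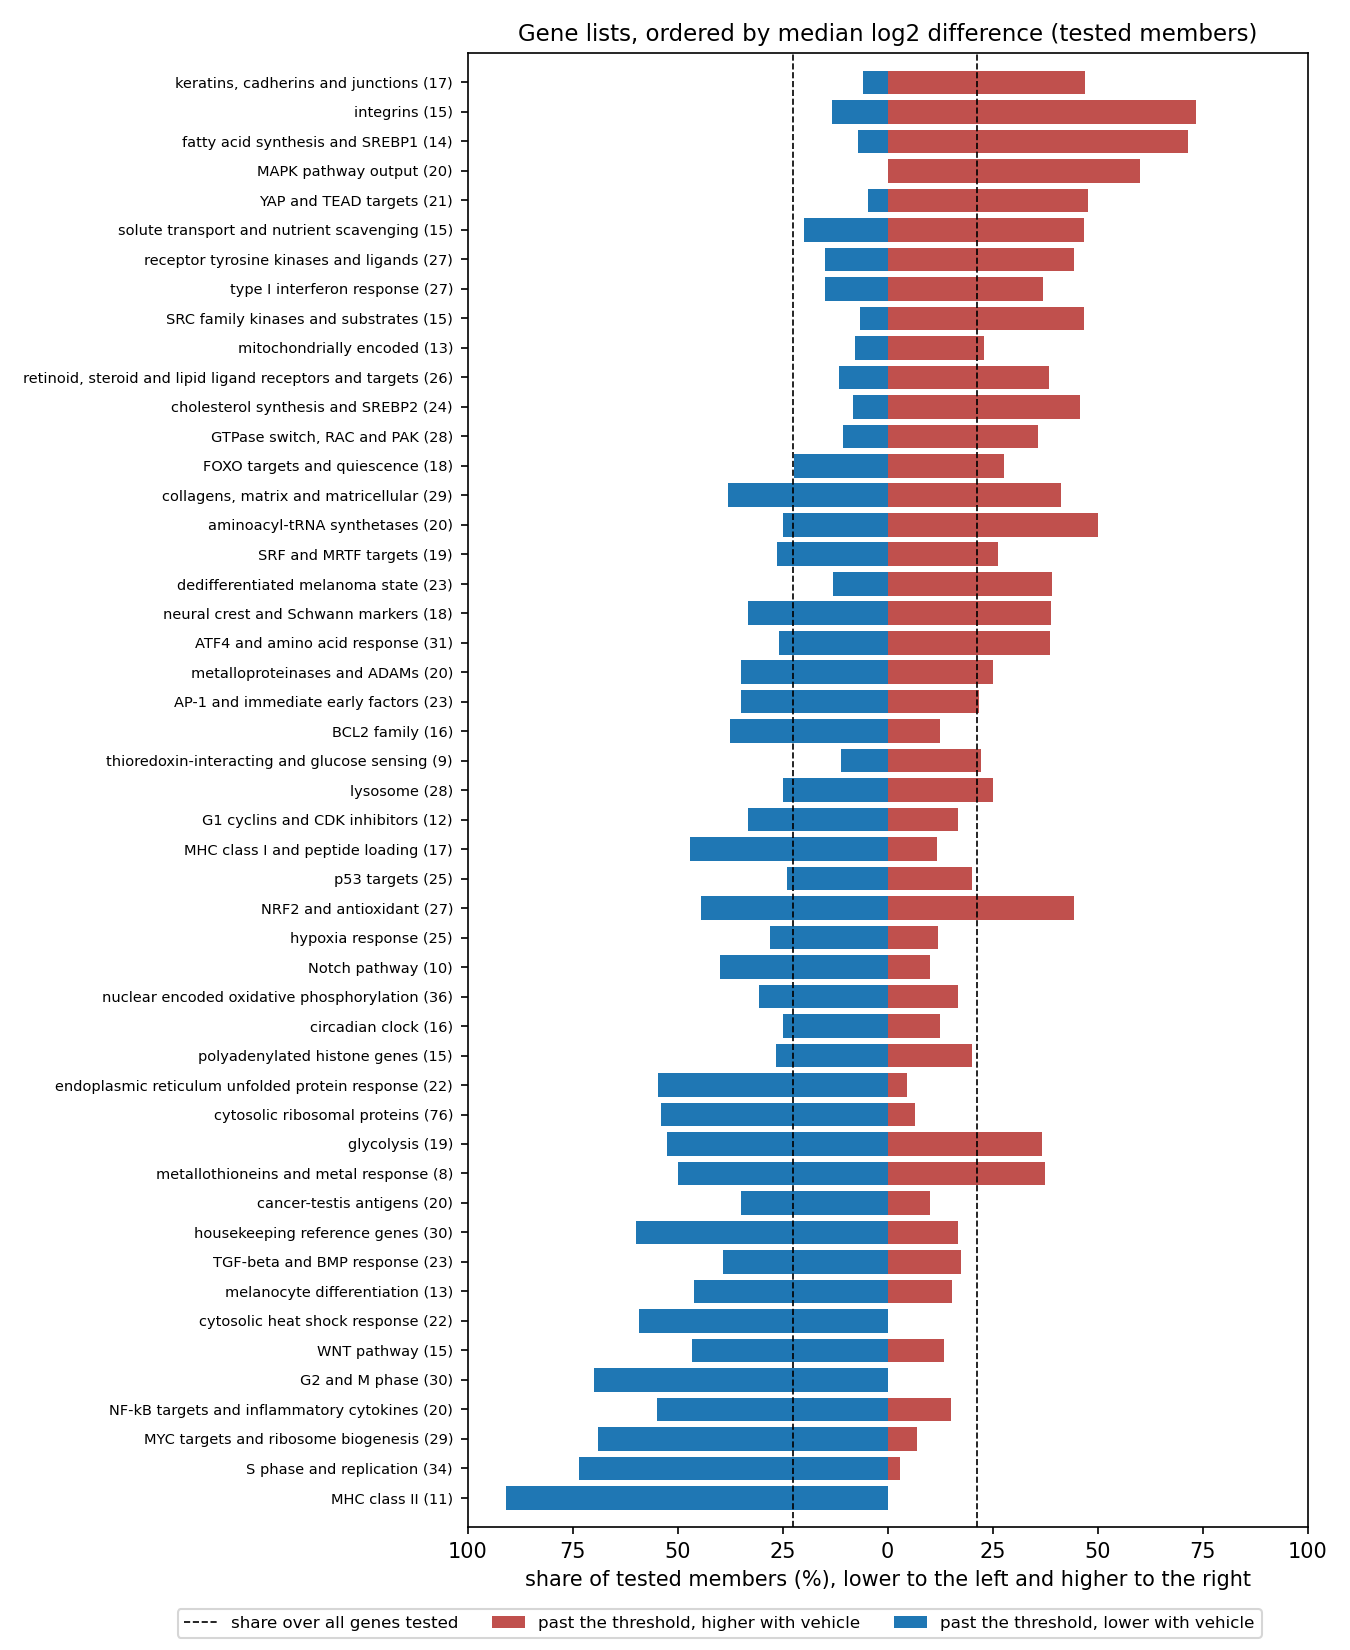
Share (%) of the tested members of each of 49 gene lists that passed the threshold higher (right) or lower (left) with vehicle, ordered by median difference, with the number of tested members in brackets. Dashed lines mark the shares over all genes, 21.2% and 22.5%; integrins (11 of 15) and fatty acid synthesis (10 of 14) reach furthest right and MHC class II (10 of 11) furthest left.

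MAPK output genes leaned to the vehicle set. Of 20 tested, 12 were higher and none lower in limma, with a median difference of 0.32; at an unadjusted p under 0.05, 2 were lower. EGR1, an immediate early zinc-finger factor, stood at 1119.5, 1017 and 1140.3 with vehicle and 402, 379.8 and 386 untreated, a difference of 1.49 ± 0.08 (limma adjusted p = 2.76e-07). EPHA2, an ephrin receptor kinase under ERK control, stood at 5746, 5183 and 5388 with vehicle and 3088, 3280.0 and 2972 untreated, and SPRY2, a feedback inhibitor, at 4652, 4539.8 and 4645 with vehicle and 3455, 3565 and 3363 untreated. The brake phosphatases differed less: DUSP6 by 0.31, DUSP4 by 0.29 and DUSP5 by 0.26, all past the threshold, while CCND1 (0.11), SPRY4 (0.03), FOSL1 (-0.10) and MYC (-0.27) were not. BRAF itself (chr7:140719327-140924928) stood at 515, 519 and 524 with vehicle and 286, 305 and 339 untreated, a difference of 0.75 ± 0.10 (limma adjusted p = 0.000103). Every vehicle library lay above every untreated one, and the sets did not overlap, in either direction, for 53.7% of all genes.

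The AP-1 and immediate early list split, with 5 of 23 higher and 8 lower. FOS, a partner of JUN in AP-1, stood at 573, 584 and 638 with vehicle and 156, 159 and 109.8 untreated, a difference of 2.09 ± 0.14, while NR4A1, an orphan nuclear receptor induced by serum, stood at 1271, 1109 and 1246 with vehicle and 2798, 2844 and 2490.0 untreated, a difference of -1.16 ± 0.07. MAFF, a small MAF factor, differed by -0.92 ± 0.10. Immediate early genes thus lay in both directions between the same libraries.

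YAP and TEAD targets, genes of the Hippo pathway's output, were higher in 10 of 21 and lower in 1, with a median of 0.32. CYR61, a matricellular protein and standard target, stood at 1559, 1598 and 1454 with vehicle and 574, 600.0 and 541 untreated, a difference of 1.42 ± 0.07 (limma adjusted p = 2.25e-07). WWTR1, which encodes the co-activator TAZ, stood at 11852, 11908 and 12226 with vehicle and 7869, 7995 and 7860.5 untreated. Actin genes under SRF and its co-factor MRTF were 5 higher and 5 lower of 19, or 8 and 6 with the GC and exon length correction. VCL, the vinculin of focal adhesions, differed by 0.79 ± 0.06, and MYL9, a myosin light chain, by 1.99 ± 0.18, whereas TAGLN2, an actin-binding protein, differed by -0.66 ± 0.05.

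Integrins, the receptors that tie cells to the matrix, were higher in 11 of 15 and lower in 2, or 8 and 3 with the values as deposited. The list median was 0.45, or 0.30 with the GC and exon length correction, where 10 were higher and 2 lower. After ITGB4, described above, ITGB3, the beta chain of the vitronectin receptor, stood at 6862, 6496 and 6941 with vehicle and 4354, 4451 and 4562 untreated. ITGA9 differed by 0.83 ± 0.11 and ITGA3, a laminin receptor chain, by 0.45 ± 0.06, or 0.30 with the GC and exon length correction. ITGA1 and ITGA2, both collagen receptor chains, were the 2 that were lower, with differences of -0.37 and -0.44.

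Collagen and matrix genes changed in both directions, 12 of 29 higher and 11 lower. COL5A2, a fibril-regulating collagen chain (chr2:189031896-189225312), stood at 4744, 5204 and 5203 with vehicle and 1867, 1925 and 1886 untreated, a difference of 1.41 ± 0.05 (limma adjusted p = 2.52e-08). TIMP1, an inhibitor of metalloproteinases, stood at 3519, 3085 and 3561 with vehicle and 9467, 9338 and 9475 untreated, a difference of -1.48 ± 0.06 (limma adjusted p = 2.52e-08). MMP2, a gelatinase that TIMP proteins restrain (chr16:55389700-55506691), stood at 4364, 4062 and 4149 with vehicle and 908, 847 and 766 untreated, a difference of 2.32 ± 0.07 (limma adjusted p = 4.4e-09). Of the other inhibitors, TIMP2 was higher, with a difference of 0.66, and TIMP3 lower, with -0.11. Over the metalloproteinase and ADAM list, 5 of 20 were higher and 7 lower.

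Keratins and junction genes had the highest list median, 0.67, with 8 of 17 higher and 1 lower. KRT8 (chr12:52897187-52949954) and KRT18 form the simple epithelial keratin pair. KRT8 stood at 976, 907 and 928 with vehicle and 308, 330.1 and 291 untreated, a difference of 1.60 ± 0.08, and KRT18 at 5849, 5124 and 5376 with vehicle and 2918, 2828 and 2537 untreated, a difference of 0.98 ± 0.07. JUP, plakoglobin of desmosomes, differed by 1.81 ± 0.18. KRT6B, among the lowest above, is a keratin outside this list.

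Markers of other cell types were read beside these groups. Of 10 epithelial markers, 6 were listed in both sets, led by KRT8, summing to 1541 to 1671 with vehicle and 862 to 944 untreated. Of the 4 epithelial markers tested, 3 were higher and 1, KRT14 (-0.45), was lower. Of 10 fibroblast markers, 6 were listed, summing to 399 to 469 and 143 to 247. EPCAM, KRT5, KRT19 and GRHL2, and COL1A2, COL3A1, THY1 and PDPN, were not listed in both sets, and CDH1 was at 1.6, 2.5 and 4.5 with vehicle and 1.0, 6.6 and 1.7 untreated. Of 12 haematopoietic markers 4 were listed, led by CD68, summing to 723 to 771 and 393 to 467, with PTPRC at 8.1, 4.8 and 4.9 with vehicle and 4.1, 1.9 and 6.8 untreated. Of 9 endothelial markers, 6 summed to 103 to 122 and 106 to 122, and 7 of 8 markers of the embryonic kidney line used to package virus to 2010 to 2174 and 1500 to 1664, led by SOX11. Of the 6 kidney line markers tested, 2 were higher and 2 lower, the latter LHX1 (-0.35) and NEFL (-0.25). Of 10 melanoma markers, 9 summed to 28450 to 30743 and 26376 to 28208. What part other cells had in the keratin and matrix differences was not tested.

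Receptor tyrosine kinases and their ligands were higher in 12 of 27 and lower in 4. DDR2, a collagen-activated kinase, stood at 2444, 2433 and 2423 with vehicle and 1100.5, 1215 and 1329 untreated, and VEGFC, a lymphangiogenic ligand, at 231, 221 and 241 with vehicle and 81.2, 63.6 and 75.9 untreated, a difference of 1.64 ± 0.15. TGFA, an EGF receptor ligand, was lower, with a difference of -0.35. The count of lower members fell to 2 without untreated replicate 2, vehicle replicate 2 or vehicle replicate 3.

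Genes of the RAC and PAK switch and of SRC signalling, the axes the study's transgenes and inhibitor act on, were read in the same way. Of 28 RAC and PAK genes 10 were higher and 3 lower, or 8 and 5 with the values as deposited, a share in all near that of all genes (43.7%). RAC1 stood at 5213, 4837 and 4954 with vehicle and 3624, 3698 and 3641 untreated, a difference of 0.45 ± 0.05 (limma adjusted p = 2.83e-05). DOCK4, a RAC exchange factor, differed by 0.91 ± 0.09, and RHOC, a small GTPase of the cytoskeleton, by -0.45 ± 0.05. Of 15 SRC family kinases and substrates 7 were higher and 1 lower, with CAV1, the caveolar coat protein, at 2929, 2926 and 3191 with vehicle and 2086, 2173 and 2056 untreated and PXN, the adhesion scaffold paxillin, differing by 0.32 ± 0.04, or 0.22 with the GC and exon length correction. With that correction 6 of the SRC list were higher and 1 lower, and its median went from 0.19 to 0.06. VAV1 was listed in the vehicle set alone, at a mean of 3.73 normalized counts, as deposited, over its 3 empty-vector libraries.

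Melanocyte differentiation genes were lower in 6 of 13 and higher in 2. OCA2, a melanosomal transporter, stood at 10.9, 4.5 and 11.2 with vehicle and 50.8, 47.7 and 61.7 untreated, and MC1R, the melanocortin receptor, at 318, 245 and 312 with vehicle and 396, 381 and 393 untreated. GPNMB, a melanosomal glycoprotein, went the other way at 1401, 1496 and 1481 with vehicle and 1138, 1087 and 1095 untreated. The dedifferentiated list was higher in 9 of 23 and lower in 3. SERPINE2, a secreted protease inhibitor, stood at 76806, 76695 and 77084 with vehicle and 50873, 48569.9 and 50244 untreated, NGFR, the neural crest stem cell receptor, at 1158, 1003 and 1171 with vehicle and 522, 526 and 437 untreated, and ZEB1, a mesenchymal transcription factor, at 696, 757 and 635 with vehicle and 316, 262 and 339.6 untreated. THBS1, thrombospondin, differed by -0.55 ± 0.06. Neural crest and Schwann markers split 7 higher and 6 lower of 18: S100A1 differed by -1.09 ± 0.07, and L1CAM, an adhesion molecule, by 1.03 ± 0.07.

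TGF-beta and BMP response genes were lower in 9 of 23 and higher in 4. The ID genes encode inhibitors of basic helix-loop-helix factors and are direct BMP targets. ID3 was at 897, 788 and 779 with vehicle and 3049, 3258 and 2596 untreated, a difference of -1.85 ± 0.09 (limma adjusted p = 1.34e-07). ID1 was at 1095, 1074 and 1018 with vehicle and 3669, 3200.5 and 2822 untreated, a difference of -1.60 ± 0.09, and ID2 at 39.0, 27.9 and 19.1 with vehicle and 136, 119 and 112 untreated. ID4 differed by -0.14 and did not pass the threshold. BAMBI, a decoy receptor, differed by -1.11 ± 0.08. WNT pathway genes were lower in 7 of 15 and higher in 2, with differences of -0.66 in LEF1 and -0.52 in WNT5A, and Notch genes lower in 4 of 10 and higher in 1, with -0.65 in NOTCH2 and -0.77 in its ligand JAG1.

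MHC class II had the highest share of members in 1 direction among the 49 lists. Of 11 tested, 10 were lower with vehicle and none higher, and the count stayed at 10 when any 1 library was left out. At an unadjusted p under 0.05, limma gave 0 higher members of this list, and likewise of the G2 and M phase and heat shock lists below. HLA-DQA1 (chr6:32628179-32647062) stood at 1140.1, 1167 and 1141 with vehicle and 4425, 4695 and 4606 untreated, a difference of -1.99 ± 0.05 (limma adjusted p = 1.76e-09). HLA-DRA stood at 5837, 6136 and 5811 with vehicle and 10404, 10366 and 10048 untreated, HLA-DMB, part of the peptide editor, at 425, 381 and 360.5 with vehicle and 738, 747 and 711 untreated, and CIITA, the transactivator of the class, at 1118, 1005 and 1188 with vehicle and 2283, 2448 and 2123 untreated. The smallest of the 10 was CD74, the invariant chain, at -0.29, and HLA-DOA (-0.01) did not pass. HLA genes are polymorphic and resemble one another, so the split of reads among them is uncertain.

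MHC class I and peptide loading genes were lower in 8 of 17 and higher in 2, although the list median was only -0.04. HLA-B stood at 2695, 2453 and 2519 with vehicle and 5606, 5815 and 5018 untreated, a difference of -1.10 ± 0.06. NF-kB targets were lower in 11 of 20 and higher in 3: NFKBIA, the inhibitor that NF-kB induces, stood at 212, 239 and 206 with vehicle and 418, 437 and 408 untreated, whereas TNFAIP2 stood at 735, 724 and 689.6 with vehicle and 322, 353 and 316 untreated. Type I interferon genes were higher in 10 of 27 and lower in 4, with ISG20 at 1582, 1304 and 1528 with vehicle and 717, 741 and 655 untreated and BST2, tetherin, at 42.4, 47.9 and 49.2 with vehicle and 7.3, 3.8 and 5.1 untreated. Without vehicle replicate 3 the count higher was 6, and the count lower was 2 without untreated replicate 3 or vehicle replicate 1.

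Many genes of S phase and of G2 and M phase were lower with vehicle. In the S phase and replication list 25 of 34 were lower and 1 higher, with a median of -0.38. FEN1, the flap nuclease, stood at 3124, 3223 and 3009 with vehicle and 4935, 5219 and 4669.7 untreated, CCNE2, cyclin E2, at 390.3, 466 and 430.3 with vehicle and 868, 889 and 864 untreated, and E2F1, the factor that drives S phase genes, at 1011, 1018 and 1022 with vehicle and 1802, 1876 and 1636 untreated. PCNA, the sliding clamp, differed by -0.54 ± 0.05 (limma adjusted p = 7.08e-06), or -0.33 with the GC and exon length correction. In the G2 and M phase list 21 of 30 were lower and none higher, with a median of -0.36. PRC1, a spindle midzone protein, stood at 3492, 3623 and 3493 with vehicle and 5162, 4968 and 5091 untreated, CDC20, an activator of the anaphase-promoting complex, at 4060.1, 4186 and 3913 with vehicle and 5895, 5788 and 5509 untreated, and PLK1, the mitotic kinase, at 2792, 2704 and 2580.0 with vehicle and 4013, 3853 and 3747 untreated. MKI67 (-0.05), TOP2A (0.10) and CENPF (0.05), common markers of cycling cells, did not pass the threshold.

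G1 regulators differed in direction. CDK6 stood at 3247, 2961 and 3261 with vehicle and 1457, 1450.0 and 1794 untreated, a difference of 1.02 ± 0.08. CDKN1A, the p21 inhibitor, stood at 1475, 1379 and 1340.2 with vehicle and 2181, 2180.0 and 1978 untreated, and CCND3, cyclin D3, at 916, 914 and 976 with vehicle and 1443, 1488 and 1386 untreated. Of 12 tested, 2 were higher and 4 lower. p53 targets were 5 higher and 6 lower of 25, near the shares over all genes (21.2% and 22.5%). The p53 count higher was 2 without vehicle replicate 3 and 3 without untreated replicate 1, untreated replicate 2 or vehicle replicate 2.

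The upstream sequences of 3 lists that lay mostly in 1 direction are shown for the members of smallest adjusted p that RefSeq gives a single start. Each is the 250 bases before the transcription start (RefSeq, GRCh38.p14), 5′ to 3′ in the direction of the gene. Searched on both strands were the cell cycle homology region or CHR, known from late cell cycle promoters, with the letters TTTGAA and its variant TTCGAA, and the CCAAT box. Capitals mark matches to either.
PRC1 (chr15:90994536-90994785, minus strand): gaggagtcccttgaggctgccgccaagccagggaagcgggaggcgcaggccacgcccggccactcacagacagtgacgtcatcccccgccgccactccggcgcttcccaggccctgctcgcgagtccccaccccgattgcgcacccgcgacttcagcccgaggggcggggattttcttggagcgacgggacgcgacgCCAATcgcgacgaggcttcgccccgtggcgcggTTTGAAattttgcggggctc
CDC20 (chr1:43358731-43358980, plus strand): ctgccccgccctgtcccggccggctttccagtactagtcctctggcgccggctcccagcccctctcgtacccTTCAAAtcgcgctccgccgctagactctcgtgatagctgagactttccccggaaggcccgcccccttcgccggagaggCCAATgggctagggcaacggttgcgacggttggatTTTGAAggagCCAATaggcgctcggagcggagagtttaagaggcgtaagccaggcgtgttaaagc
A CHR match was in 11 of the 20 G2 and M phase members with a sequence (55.0%), and in 9.4% of 7220 tested genes with a sequence. A CCAAT match was in 17 of the 20 (85.0%), and in 36.6% of the 7220. In CDC20 the CHR match nearest the start begins 65 bases before it, between 2 CCAAT matches at 100 and 55. A match is a run of letters and was not tested for binding.

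For MHC class II the Y box of these promoters contains the reverse complement of CCAAT, which reads ATTGG, and capitals mark either.
HLA-DQA1 (chr6:32637156-32637405, plus strand): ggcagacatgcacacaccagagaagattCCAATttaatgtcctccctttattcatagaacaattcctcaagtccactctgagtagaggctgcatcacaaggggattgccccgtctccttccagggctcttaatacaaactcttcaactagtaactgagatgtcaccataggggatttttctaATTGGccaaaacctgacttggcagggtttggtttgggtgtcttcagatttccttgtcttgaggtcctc
HLA-DMB (chr6:32941029-32941278, minus strand): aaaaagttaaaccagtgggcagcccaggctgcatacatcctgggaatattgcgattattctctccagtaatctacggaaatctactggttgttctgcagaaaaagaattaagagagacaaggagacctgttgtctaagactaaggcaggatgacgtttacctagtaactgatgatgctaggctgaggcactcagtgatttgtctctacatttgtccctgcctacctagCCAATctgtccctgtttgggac
All 8 class II members with a single start held a match in either direction, and so did 36.6% of the 7220 genes. The only match of HLA-DMB reads CCAAT, not ATTGG, and begins 22 bases before the start. Binding was not tested here either. The match of HLA-DQA1 nearest the start begins 68 bases before it.

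MYC targets and ribosome biogenesis genes were lower in 20 of 29 and higher in 2, with a median of -0.38. RRP9, a pre-ribosomal RNA processing factor, stood at 937, 968 and 944 with vehicle and 1651, 1699.7 and 1515 untreated, and NME1, a nucleoside diphosphate kinase, at 4667, 4992 and 4634 with vehicle and 6866, 6889 and 6981 untreated. MYC itself differed by -0.27 and did not pass the threshold. Cytosolic ribosomal proteins were lower in 41 of 76 and higher in 5, with a median of -0.15. RPL35 stood at 11099, 10549 and 10421 with vehicle and 14879, 15489 and 14268 untreated and RPS24 at 11965, 14222 and 12651 with vehicle and 20050.5, 19214 and 19091 untreated. These are short transcripts: with that correction 29 were lower and 15 higher.

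Cytosolic heat shock genes were lower in 13 of 22 and higher in none, with a median of -0.29. HSP90AA1, the inducible HSP90 chaperone (chr14:102080738-102139699), stood at 31270.2, 34329 and 31901 with vehicle and 67731, 65316 and 66820.2 untreated, a difference of -1.04 ± 0.04 (limma adjusted p = 2.7e-08). HSPH1, a nucleotide exchange factor for HSP70, stood at 5015, 5568 and 5187 with vehicle and 8942, 8547 and 9205 untreated, DNAJA1, an HSP70 co-chaperone, at 3948, 4402 and 4108 with vehicle and 7308, 6864 and 7003 untreated, and HSPD1, the mitochondrial chaperonin, at 12159, 12706 and 12242 with vehicle and 18639, 17949 and 19049 untreated. Heat shock factor binds inverted repeats of GAA, searched as GAANNTTC or TTCNNGAA, and capitals mark a match.
DNAJA1 (chr9:33025023-33025272, plus strand): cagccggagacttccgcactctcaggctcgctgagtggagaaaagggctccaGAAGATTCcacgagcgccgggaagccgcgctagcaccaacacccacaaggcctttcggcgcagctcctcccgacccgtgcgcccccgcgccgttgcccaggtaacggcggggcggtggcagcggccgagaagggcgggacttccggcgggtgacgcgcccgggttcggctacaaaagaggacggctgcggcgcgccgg
HSPH1 (chr13:31162389-31162638, minus strand): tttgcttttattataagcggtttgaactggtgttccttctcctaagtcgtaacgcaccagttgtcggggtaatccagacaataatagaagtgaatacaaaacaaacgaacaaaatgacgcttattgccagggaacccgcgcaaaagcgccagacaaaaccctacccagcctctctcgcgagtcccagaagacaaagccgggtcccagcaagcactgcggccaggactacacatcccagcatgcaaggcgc
A match was in 6 of the 10 members with a single start (60.0%) and in 8.5% of the 7220 genes. DNAJA1 holds 1, beginning 198 bases before the start, and these letters are not in the HSPH1 window.

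**Figure D5:**
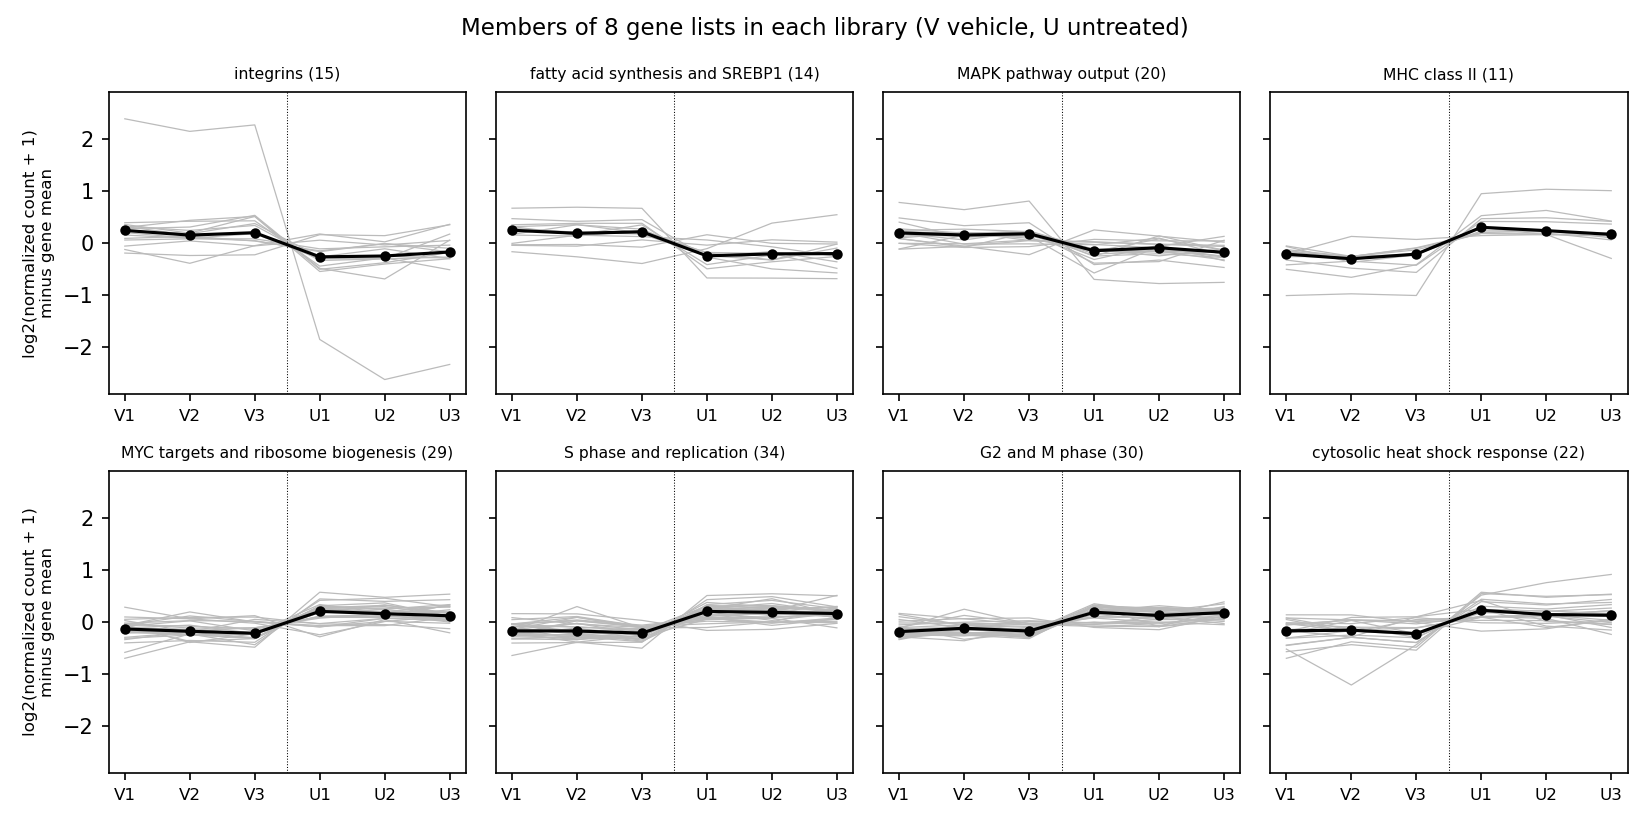
Log2(normalized count + 1) of each member of 8 gene lists, minus the gene's mean over the 6 libraries, in vehicle libraries V1 to V3 and untreated libraries U1 to U3; grey lines are genes, black dots the list median. In all 8 panels the 3 vehicle medians lie on one side of 0 and the 3 untreated medians on the other, and ITGB4 is the steepest line of the integrin panel. The panels show lists whose members past the threshold lay mostly in a single direction, so this separation is not further support for them.

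Of the other stress programmes, the unfolded protein list lay mostly lower and the NRF2 list split. Endoplasmic reticulum unfolded protein genes were lower in 12 of 22 and higher in 1, among them CALR, the lectin chaperone, at 14357, 13602 and 13964 with vehicle and 18188, 18016 and 17358 untreated, and CRELD2, with a difference of -0.73. The NRF2 list was 12 higher and 12 lower of 27: SQSTM1, the autophagy adaptor p62, stood at 7069, 6712 and 6829.9 with vehicle and 12180.5, 11967 and 10734 untreated, and NQO1, a quinone reductase, at 15094, 14895 and 14348 with vehicle and 10734, 10658 and 10241 untreated. Iron storage and haem breakdown separated. FTH1, the ferritin heavy chain, stood at 26134, 23389 and 24914 with vehicle and 12591, 11465 and 10918 untreated, while HMOX1, haem oxygenase, stood at 201, 185 and 179 with vehicle and 412, 449 and 411 untreated. Both ferritins have many processed copies, which makes their share of reads uncertain.

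Lipid synthesis genes were higher with vehicle. In the fatty acid list 10 of 14 were higher and 1 lower, with a median of 0.44. SCD, the stearoyl-CoA desaturase (chr10:100347124-100364834), stood at 10282, 10418 and 10266 with vehicle and 4063, 4056 and 4026 untreated, a difference of 1.35 ± 0.04 (limma adjusted p = 4.4e-09). FADS1, another desaturase, stood at 3746, 3818 and 3819 with vehicle and 2084, 2288 and 2456 untreated, ACACA, the acetyl-CoA carboxylase, at 2546, 2456 and 2513 with vehicle and 1526, 1304 and 1236 untreated, and ACLY, which makes cytosolic acetyl-CoA, at 6742, 6644 and 6669 with vehicle and 4824, 4930.5 and 4957 untreated. FASN differed by 0.58, SREBF1 by 0.55, and GPAM, the 1 lower, by -0.55.

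In the cholesterol list 11 of 24 were higher and 2 lower. SREBF2, the regulator of the pathway, stood at 2728, 2662 and 2783 with vehicle and 1484, 1443 and 1324 untreated, STARD4, a sterol carrier, at 328, 341 and 316 with vehicle and 149.9, 163 and 155 untreated, and DHCR7, a late enzyme of the pathway, at 1080.1, 1223 and 1094 with vehicle and 627, 652 and 523 untreated. The early enzyme HMGCS1 (-0.03) did not pass the threshold. Among nuclear receptor and lipid ligand genes 10 of 26 were higher and 3 lower, or 8 and 6 with the values as deposited. With the GC and exon length correction 9 were higher and 5 lower, and the list median went from 0.18 to 0.06. NR1H3, the oxysterol receptor LXR alpha, stood at 485, 424 and 358 with vehicle and 184, 179 and 161 untreated. Its targets ABCG1 and ABCA1, both cholesterol exporters, stood at 71.4, 71.6 and 58.3 with vehicle and 13.7, 13.2 and 8.3 untreated and at 395, 372 and 403 with vehicle and 195, 246 and 245 untreated. MYLIP, another target, differed by -0.04 and did not pass.

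The ATF4 list of amino acid metabolism was higher in 12 of 31 and lower in 8, the latter falling to 5 without untreated replicate 2 or vehicle replicate 3. ALDH1L2, a mitochondrial folate enzyme, stood at 524, 545 and 638 with vehicle and 187, 209 and 208 untreated, and ASNS, asparagine synthetase, at 2158, 2504 and 2152 with vehicle and 1352, 1288 and 1399.8 untreated, whereas SLC1A4, a neutral amino acid transporter, stood at 719.7, 753 and 690.4 with vehicle and 1328, 1274 and 1193 untreated. Aminoacyl-tRNA synthetases were higher in 10 of 20 and lower in 5, AARS at 6176, 6219 and 6176 with vehicle and 3833, 3971 and 3899 untreated. Solute transporters were higher in 7 of 15 and lower in 3, with differences of 0.51 in the phosphate transporter SLC20A1 and 0.86 in the glutamine transporter SLC38A1.

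Glycolysis genes split 7 higher and 10 lower of 19, with LDHA at 13691, 13859 and 13504 with vehicle and 18843, 16935 and 18462 untreated and ALDOC at 647, 652 and 616 with vehicle and 355, 331 and 302 untreated. Hypoxia response genes were 3 higher and 7 lower of 25, the latter 4 without vehicle replicate 3. Nuclear genes of oxidative phosphorylation were 6 higher and 11 lower of 36, a share in all near that of all genes (43.7%). COX7B differed by -0.42 and COX5B by -0.40. With the GC and exon length correction 9 were higher and 7 lower, and the list median turned from -0.09 to 0.05. Of 13 mitochondrially encoded genes 3 were higher and 1 lower, but the count higher was 7 without untreated replicate 3 or vehicle replicate 1 and 1 without any of the other 4 libraries. With the GC and exon length correction 10 were higher and none lower in limma, and the list median went from 0.18 to 0.62. Mitochondrial genes made up 1.45 to 1.87% of the total with vehicle and 1.29 to 1.59% untreated.

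Lysosome genes were 7 higher and 7 lower of 28, with CTSL, the protease cathepsin L, at 1459.9, 1382 and 1403 with vehicle and 3039, 2932 and 2802 untreated. BCL2 family genes were 2 higher and 6 lower of 16, the latter 2 without untreated replicate 1, and 3 without untreated replicate 2 or vehicle replicate 3 or with the GC and exon length correction. FOXO targets were 5 higher and 4 lower of 18, the latter 2 without vehicle replicate 2 or 3, and PDK4, which restrains pyruvate oxidation, stood at 255, 303 and 272 with vehicle and 158, 161 and 163 untreated. Clock genes were 2 higher and 4 lower of 16, with NPAS2 at 2517, 2384 and 2610.1 with vehicle and 1394, 1567 and 1470.5 untreated and NR1D1 at 214, 213 and 202 with vehicle and 385, 379.7 and 358 untreated. Cancer-testis antigens were 2 higher and 7 lower of 20, 4 and 4 with the GC and exon length correction, and 1 and 11 with the values as deposited. Among them PRAME stood at 2816, 2862 and 2709.9 with vehicle and 1951, 2095 and 1964 untreated. Histone genes with polyadenylated messages were 3 higher and 4 lower of 15, metallothionein and metal response genes 3 higher and 4 lower of 8, and glucose sensing genes 2 higher and 1 lower of 9. When 1 library was left out, 0 to 2 glucose sensing genes were higher and 0 to 2 lower, with 0 higher without untreated replicate 3; they were 1 higher and 4 lower with the values as deposited, and 2 and 3 with the GC and exon length correction.

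Some abundant genes were level across the 6 libraries. Among genes with a mean of at least 1000, the 10 with the tightest interval around no difference were TNC, FLNA, YWHAQ, RPLP0, SRSF1, IPO5, RPL15, PPT1, MAGEA4 and IMMT. YWHAQ, a 14-3-3 adaptor, stood at 6232, 6219.7 and 6098 with vehicle and 6230.4, 6072 and 6244 untreated. RPLP0, a ribosomal stalk protein often used as a reference, stood at 53280.5, 50816 and 49807 with vehicle and 51761, 52306 and 48746 untreated, and IMMT, of the mitochondrial inner membrane, at 3468, 3421 and 3409.9 with vehicle and 3423, 3386 and 3448 untreated. TNC and FLNA are exceptions under the GC and exon length correction, where their differences were -0.12 and -0.16 and passed the threshold.

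Common reference genes were not all level. Of 30, 18 were lower and 5 higher, with a median of -0.19, and the count higher was 3 without untreated replicate 1 or without any 1 of the 3 vehicle libraries. With the GC and exon length correction 14 were lower and 8 higher, with a median of -0.09. GAPDH stood at 94228, 80861 and 86909 with vehicle and 102544, 103748 and 96378 untreated, a difference of -0.21 ± 0.05 that did not pass with quantile normalization or without the variance trend. VCP, the segregase ATPase, differed by -0.65 ± 0.05, PSMB4, a proteasome subunit, by -0.48 ± 0.04, and CHMP2A, of the ESCRT machinery, by 0.72 ± 0.07. ACTB (0.12), HPRT1 (0.05), GUSB (-0.07) and REEP5 (-0.01) did not pass the threshold.

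Genes that varied most within a set included near copies of other genes. SRP9P1 was listed at 106, 55.4 and 0 with vehicle and 276, 344 and 329.7 untreated, and ITGB1P1 at 26.1, 0 and 87.3 with vehicle and 257, 276 and 255 untreated; both are processed copies whose reads can be assigned to the parent. SMIM11B and SSX2B have near-identical copies and stood at 176, 66.9 and 1.5 with vehicle and 195, 211 and 169 untreated and at 68.6, 241 and 196 with vehicle and 211, 59.4 and 259.9 untreated. PRRT2, PLLP and PSMC1P1 were also among the most variable, with ZACN and PCDH15.

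Symbols listed in a single set were all low, and their values are given as deposited, without the common rescaling. Of 1065 in the vehicle set alone, the highest mean was 29.4 normalized counts, of LARGE2, then 29.4 of KCNA4, 27.5 of GAGE12E, 19.5 of CNTN4 and 18.4 of GUCY1B2. GAGE12E, one of a family of near-identical genes, had 0 in vehicle replicate 2. Of 592 in the untreated set alone, the highest symbols were the pseudogenes GAPDHP65 at 13.3, RPSAP54 at 11.3, RPS7P11 at 10.99, HSP90AA2P at 10.2 and RPSAP4 at 9.50. Absence from one list is not a measured 0.

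On a fit of all 15 libraries, with size factors over all 15, the controls differed in 6617 of 14673 genes (45.1%) with a median absolute difference of 0.291. On the same fit VAV1 against its vehicle control gave 6295 (42.9%) and 0.265, saracatinib against vehicle in VAV1 cells 5402 (36.8%) and 0.248, and RAC1P29S against its untreated control 4782 (32.6%) and 0.216. These comparisons share libraries, and their values stand side by side without a test between them.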

How the data were processed

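Total RNA of 6 A375 empty-vector libraries (3 with vehicle, 3 untreated) was sequenced. Per the submitters' processing notes, kallisto and DESeq2 were used with GRCh38, in roles and versions not given in the sources used here. The authors deposited a log2 value per gene symbol and library, read as log2(normalized count + 1) with each experiment normalized on its own, since the symbol lists differ between experiments.

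Values were turned back to normalized counts and rescaled to median-of-ratios size factors over the 6 libraries. Genes with at least 10 normalized counts in at least 3 libraries were tested on log2(normalized count + 1) with limma 3.58.1 in R 4.3.3 (variance trend, robust, two-sided, Benjamini-Hochberg adjustment over all genes, adjusted p threshold 0.05), and the code was tested on simulated data. Coordinates, exon length and GC came from GENCODE 29, with 95.1% of tested symbols found once; the mgcv 1.9.3 package fitted the GC and length correction. Upstream sequences came from RefSeq GRCh38.p14, for genes with 1 listed start. Depth in reads is unknown, so precision was read from the spread between libraries.

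The text names the 12 highest and 12 lowest differences (mean of at least 100 in the higher group, no overlap), up to 4 members of smallest adjusted p from each list with at least 3 past the threshold, the 15 most abundant genes per kilobase, the 10 closest, the 10 most variable, up to 5 symbols of each single list, and lineage genes. A few genes that the rule names are not reported here. Other list members were named after their values were seen. Members and lists were chosen with earlier results of these data known. Alternatives covered scaling, pseudocount, filter, variance model, all 15 libraries, a replicate block, leaving out each library and, added after seeing the data, the GC and length correction.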

Additional observations from a re-analysis of the deposited data

How the results depend on the processing

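Of the 256 genes named by rule and reported, 232 passed the threshold. Of these, 2 lost the threshold with the replicate block, 8 without the variance trend and 10 with quantile normalization. From 6 to 10 lost it when 1 library was left out, and 148 in the test against a 1.5-fold change. Leaving out 1 library gave 5002 to 5711 genes past the threshold, against 6113. The count was 5271 without the trend, 6346 as deposited, 6100 with total-count scaling and 5898 with quantile normalization. It was 496 (330 higher, 166 lower) in the test against a 1.5-fold change, where the count over 2-fold was 441 and that of list members 74 of 598. The count over 2-fold fell from 980 to 573 with a filter of 50 and to 537 with a pseudocount of 16, since both act on low genes. With the replicate number as a block, 5874 genes passed (2854 higher, 3020 lower). Deviations of same-numbered libraries from their set means had correlations of -0.0384, -0.0429 and -0.0182. These values cannot show whether same-numbered cultures were handled together, which the labels do not state. Differences that turned sign were TMSB10 (0.13 with quantile normalization) and, with the GC and exon length correction, TMSB10 0.46, RPL9P9 0.28, RPS12 0.11, RPS27 0.0504, TNC -0.12 and FLNA -0.16; the cause was not tested. List medians near 0 turned sign under at least 1 scaling for AP-1, neural crest, metalloproteinase, MHC class I, G1, ATF4, NRF2, glycolysis, glucose sensing, lysosome and BCL2 lists, and with the GC and length correction for oxidative phosphorylation, histone, cancer-testis, metalloproteinase and BCL2 lists. As deposited, p53 targets were 2 higher and 9 lower, and nuclear oxidative phosphorylation genes 4 and 17. Genes with a mean under 100 had a spread of about 0.31 log2 units within a set, which limits what could pass there.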
